A study of Coryphaena hippurus with 21 samples.

Results

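The microRNAs (miRNAs) described here are those of the vertebrate eye and sensory organs, counted in small RNA libraries of whole larvae of the mahi-mahi, a pelagic fish, taken 48 hours after fertilization. The members are all names in the count tables with the family number miR-96, miR-182, miR-183, miR-184, miR-204 or miR-211, whatever the species prefix or arm. The rule found 9 of 329 names. The hair cell and retina cluster held 7 of them, namely chi-miR-96, chi-miR-182 and 5 names of miR-183. The lens and pigment epithelium set held ola-miR-184-5p and ola-miR-204, and no name belonged to miR-211. Only chi-miR-182, chi-miR-96, ola-miR-184-5p and ola-miR-204 stood in all 6 tables, and these 4 were counted above 0 in all 21 libraries.

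In vertebrates miR-96, miR-182 and miR-183 are made from a common transcript and are known from photoreceptors, hair cells of the inner ear and lateral line, and sensory ganglia. The miRNA miR-184 is known from the lens and cornea. The related miR-204 and miR-211 are known from lens, ciliary body and retinal pigment epithelium, where miR-204 takes part in eye development in medaka fish. The libraries came from whole larvae, so fewer cells of a type and less miRNA per cell cannot be told apart.

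Embryos of captive spawning mahi-mahi developed at 27 °C in seawater that held Deepwater Horizon oil as diluted HEWAF, a fraction made by blending oil into water at high energy. Slick oil, collected at the sea surface, was given at 0.5% (slick L), 1% (slick M) and 2% (slick H), and source oil at 0.125% (source L), 0.25% (source M) and 0.5% (source H), while control larvae stood in seawater at 0%. Each of the 7 groups had 3 libraries made from pooled larvae. What is called source oil here is titled mass in the labels, and the reading rests on the series naming no oil besides slick and source.

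The libraries held 3157670 to 8736995 counts. Whole larva markers were present, with 4 of 5 families of a muscle and heart list, 6 of 6 of a brain and neuron list, 1 of 2 of a red blood cell list, 1 of 1 of an endothelium list and 3 of 4 of a skin and epithelium list found among the names. On the first principal component of the 99 names counted in every library, which held 51.3% of the variance, 7 libraries lay apart from the other 14. These were source L library L3 and all libraries of source M and source H, so values of source M and source H rest on them entirely. Each of the 6 tables pairs 1 exposure with the same control libraries C4, C5 and C6, and the first exposed library of a table holds no 0, so a name at 0 there would not be listed. Levels below are in CPM, counts scaled to a common library total, here with trimmed mean of M-values (TMM) factors over the 110 names in all tables. Fold changes come from the fit within the table of each exposure. A name was called when edgeR's quasi-likelihood test gave a Benjamini-Hochberg adjusted p under 0.05 over all names tested.

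Of the members counted above 0 in every library, chi-miR-182 was the most abundant. It averaged 12546 CPM and ranked 8 of 110 names by mean level. Control libraries held 18998, 15408 and 14311 CPM. Along the source oil series the libraries held 16526, 15983 and 13611 CPM at 0.125%, 7062, 6227 and 11053 CPM at 0.25%, and 5111, 8481 and 10674 CPM at 0.5%. All 6 libraries of source M and source H lay below the lowest control library, while source L overlapped control. Along the slick oil series chi-miR-182 held 12947, 14336 and 20198 CPM at 0.5%, 12155, 12307 and 13923 CPM at 1%, and 2177, 16719 and 15261 CPM at 2%. The 3 slick M libraries lay just under the controls, and slick L and slick H overlapped them.

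Over the 12 libraries of control and source oil, chi-miR-182 fell with concentration, with a slope of -2.75 ± 0.74 (SE) on the log2 scale per percent of oil (edgeR adjusted p = 0.0294). Group means were 16239 CPM in control, 15373 in source L, 8114 in source M and 8089 in source H. The fall was thus not even along the series, and the fit of a straight line was not tested. The member was the only one of 4 tested that was called, where 20 of 121 names (16.5%) were called and 19 (15.7%) fell. The call was held in 5 of 12 fits that left out 1 library, with adjusted p from 0.0260 to 0.0980. It was lost without C4 (adjusted p = 0.0705), C5 (0.0629), C6 (0.0587), source L1 (0.0672), source L2 (0.0980), source M1 (0.0817) or source H1 (0.0661). Without source L3 the slope was -2.72 ± 0.76 and the call was held (adjusted p = 0.0267). The slick oil slope was -0.25 ± 0.26 per percent (adjusted p = 0.666), and 0 of 5 member names tested were called there, against 7 names (5.47%) of all tested.

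Set against control one dose at a time, chi-miR-182 averaged 8114 ± 2579 CPM in source M and 16239 ± 2452 CPM in control (SD, n = 3 each). The log2 fold change of -0.98 ± 0.30 (SE) missed the threshold (edgeR adjusted p = 0.0671). In source H it averaged 8089 ± 2802 CPM, with a log2 fold change of -0.97 ± 0.35 (adjusted p = 0.110). Both contrasts passed when only names above 0 in every library were tested, at -1.01 (adjusted p = 0.0140) in source M and -0.87 (adjusted p = 0.0483) in source H. In those sets 56.5% of names were called in source M and 50.0% in source H. DESeq2 called both as well, at -1.03 in source M, where it called 47.0% of names, and -1.09 in source H, where it called 38.4%. The authors' deposited tables also list chi-miR-182 lower in both, at a log2 fold change of -1.002 (adjusted p = 0.00644) in source M and -1.09 (adjusted p = 0.00271) in source H. In source L the value was -0.07 ± 0.20, in slick L 0.02 ± 0.23 and in slick M -0.37 ± 0.18, none of them called.

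**Figure D1:**
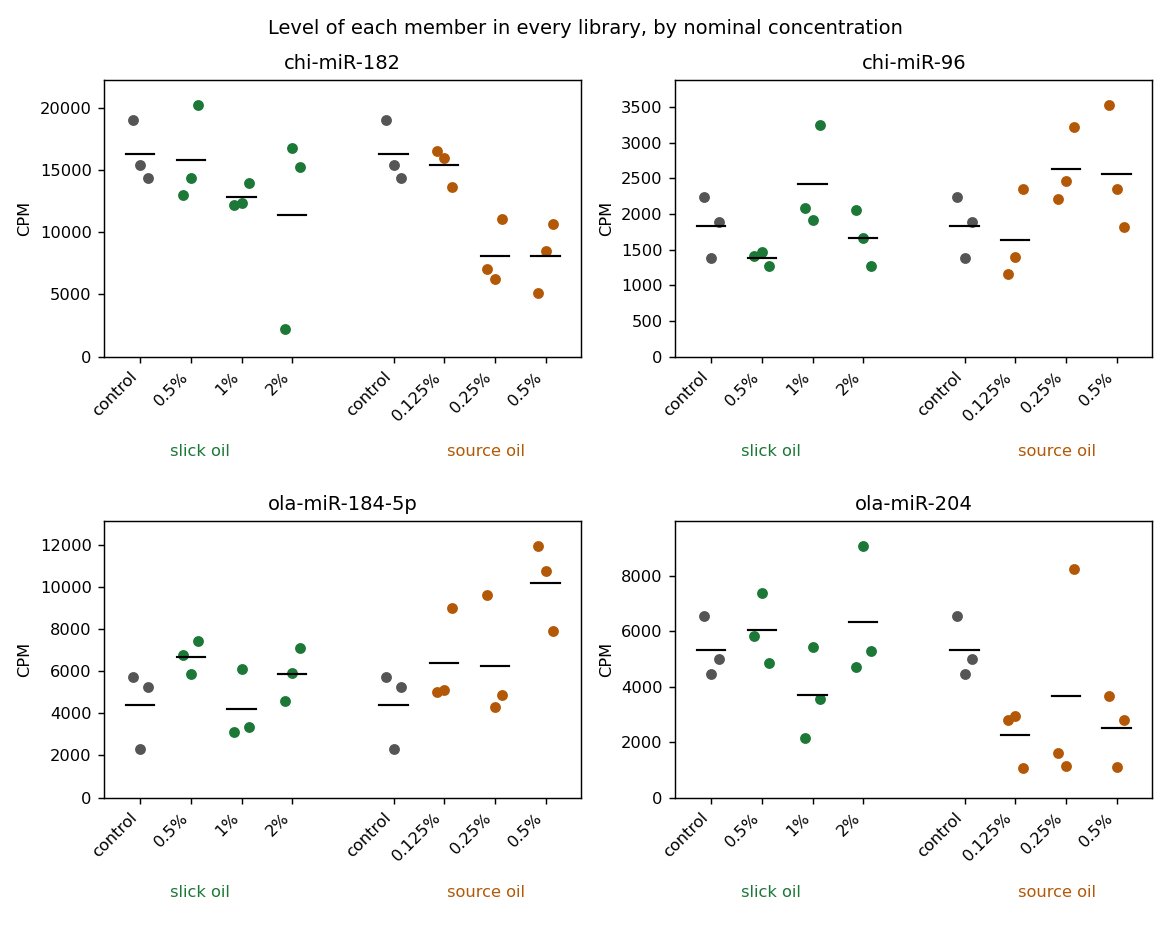
Level of chi-miR-182, chi-miR-96, ola-miR-184-5p and ola-miR-204 in CPM (vertical axes, from 0) in each library, against nominal concentration of slick oil (green) and source oil (orange). Each point is a library, horizontal bars are group means, and the 3 control libraries (grey) are drawn at the low end of both series. The 6 source oil libraries at 0.25% and 0.5% lie below the controls for chi-miR-182, as do the 3 slick oil libraries at 1%. For ola-miR-184-5p the 3 libraries at 0.5% of each oil lie above the controls.

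The slick H library H4 stood apart for chi-miR-182, with 2177 CPM beside 16719 and 15261 CPM in H5 and H6. The slick H contrast was -0.40 ± 0.77 with it and 0.03 ± 0.14 without it, and neither value was called. The partner miR-183 did not share the low value, since it stood at 15115 CPM in H4. Library H4 held 8284057 counts, the most of its group, beside 3995199 in H5 and 3407490 in H6. The part of depth in the value was not tested. In the source M table chi-miR-182 stands on 2 lines, with 19967 and 3560 counts in library M1 and the same counts in all other libraries, and the higher was used. The slick H table lists the name once, with 13777 counts in H4. Libraries M1 and H4 are each the first exposed library of their table. Where lines of a repeated name differed, they differed in such a first library only. Counts of chi-miR-183 were 25983 in M1 and 95653 in H4. The part of such double lines in the H4 value was not tested.

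The 5 names of miR-183 were chi-miR-183, oan-miR-183, rno-miR-183-5p, tch-miR-183-5p and tgu-miR-183. They took turns across libraries. No library had more than 2 of them above 0, and in the 6 libraries with 2 such names the lower count was 99.2 to 99.6% of the higher. These 6 were the first exposed library of each of the 6 tables, namely slick L4, M4 and H4 and source L1, M1 and H1. A sum over names would therefore count the same reads again, so the highest name was taken as the level of miR-183 in a library. That gave a level in 13 of 21 libraries. In the other 8 all listed miR-183 names were at 0, including control C6, which does not show that miR-183 was absent there.

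The level of miR-183 followed that of miR-182 in 12 of these 13 libraries. Counts of chi-miR-182 were 0.657 to 1.40 times those of miR-183, with a median of 0.921, in the 12 libraries other than slick H4. In slick H4 the ratio was 0.144. Levels of miR-183 were 7785 and 9094 CPM in source H libraries H1 and H2, 9190 CPM in source M1, and 22326 and 14655 CPM in controls C4 and C5. In source L they were 19125 and 17194 CPM in L1 and L2, and 9726 CPM in L3, the library that lay with source M and source H. In slick oil they were 14176 and 15272 CPM in slick L, 10887 CPM in slick M4, and 15115 and 16864 CPM in slick H4 and H6. The source M and source H libraries with a value were the lowest, and no test was made because a level was missing in 1 to 2 libraries of each of these groups and of control.

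**Figure D2:**
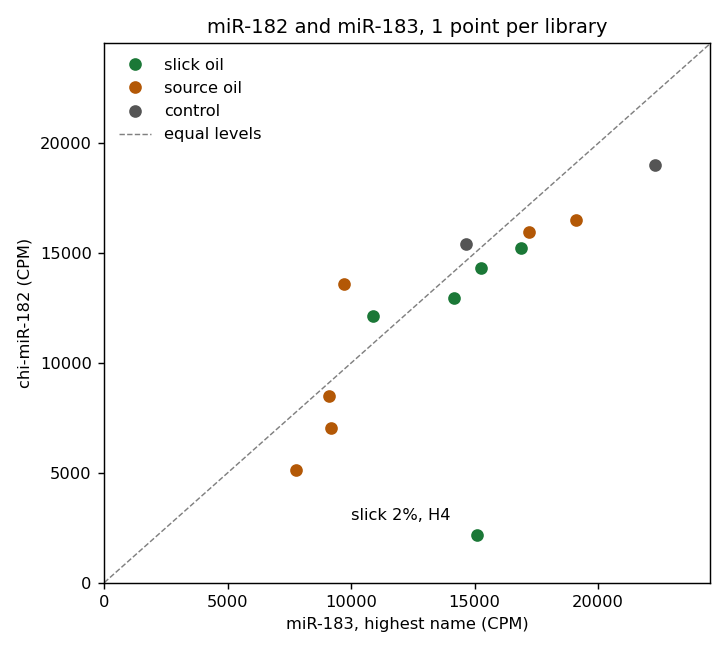
Level of chi-miR-182 (vertical axis, CPM) against the highest name of miR-183 (horizontal axis, CPM) in the 13 libraries where a miR-183 name was above 0. Each point is a library of slick oil (green), source oil (orange) or control (grey), and the dashed line marks equal levels. The points lie near the line except slick H4, with 2177 CPM of chi-miR-182 and 15115 CPM of miR-183.

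A miR-183 name could enter a test in few tables. The name tch-miR-183-5p in source L (adjusted p = 0.970) and oan-miR-183 in source H (adjusted p = 0.991) passed the filter on low counts and were not called. Both held 0 in libraries where another miR-183 name or no name had the reads, so these tests say nothing of the miRNA. DESeq2 called chi-miR-183 higher in slick L, where it called 33.9% of names, and in slick H, where it called 26.0%, and the name was listed at 0 in all 3 controls. Control C4 held 132600 counts of oan-miR-183 and control C5 held 94862 of tch-miR-183-5p, so those calls concern the name and not the miRNA.

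The third cluster member, chi-miR-96, was the least abundant of the 4, with a mean of 2020 CPM, and no contrast with control was called. Control libraries held 2241, 1380 and 1893 CPM. Along the source oil series chi-miR-96 held 1159, 1400 and 2349 CPM at 0.125%, 2217, 2459 and 3219 CPM at 0.25%, and 3529, 2348 and 1823 CPM at 0.5%. The source M and source H groups both overlapped control. The log2 fold changes were 0.55 ± 0.27 in source M (edgeR adjusted p = 0.204) and 0.51 ± 0.35 in source H (adjusted p = 0.423). Along the slick oil series the libraries held 1407, 1465 and 1273 CPM at 0.5%, 2089, 1915 and 3253 CPM at 1%, and 2062, 1669 and 1275 CPM at 2%. The slick contrasts ran from -0.36 ± 0.18 in slick L to 0.37 ± 0.30 in slick M, with none called. The source oil slope was 0.64 ± 0.77 per percent (adjusted p = 0.588).

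The ratio of chi-miR-96 to chi-miR-182 within a library does not depend on scaling. In source M it was 0.314, 0.395 and 0.291, and in source H 0.690, 0.277 and 0.171, against 0.118, 0.0896 and 0.132 in control. All 6 of these source oil libraries lay above the controls. In source L the ratio was 0.0701, 0.0876 and 0.173, with L3 above the controls. In slick M it was 0.172, 0.156 and 0.234, also above all controls, and in slick L it was 0.109, 0.102 and 0.0630. In slick H it was 0.0998 and 0.0836 in H5 and H6 and 0.947 in H4, the library with the low chi-miR-182 count. The ratio combines members and is given without a test, and no share over ratios of other names was counted. Among single names libraries did not overlap control for 18.9% in slick M, 54.0% in source M and 50.0% in source H.

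**Figure D3:**
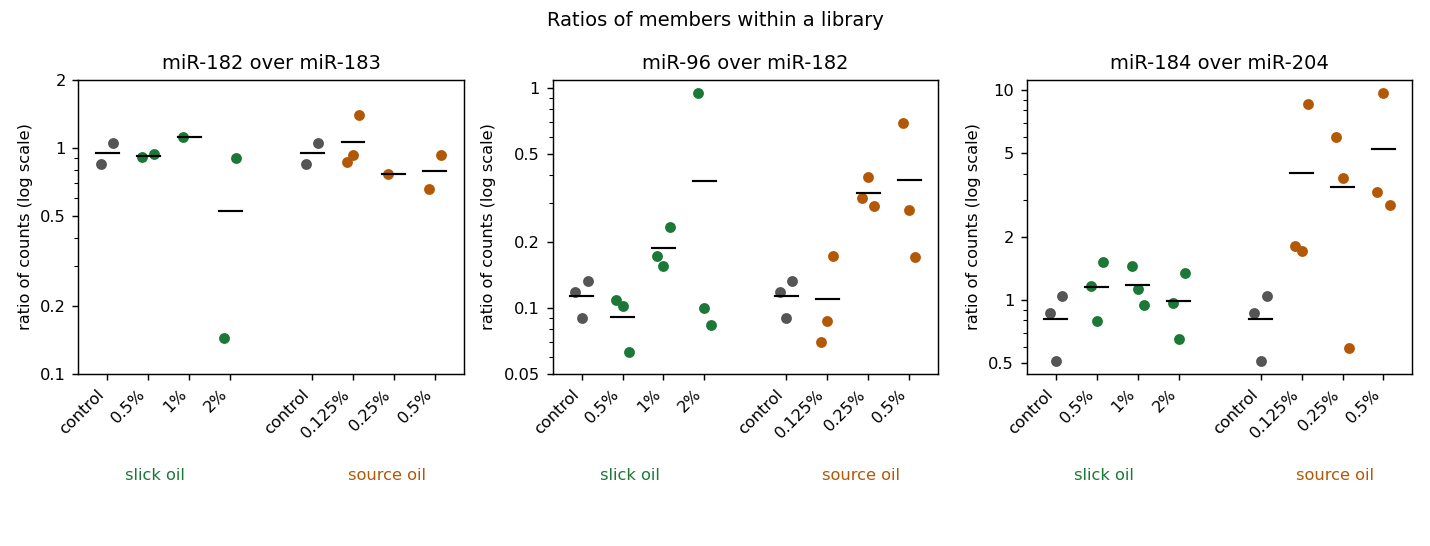
Ratios of counts within a library (log vertical axes) by nominal concentration of slick oil (green) and source oil (orange), with control libraries in grey. Points are libraries and bars are group means, and the first panel shows only the 13 libraries with a miR-183 count. The ratio of miR-96 to miR-182 at 0.25% and 0.5% source oil is 0.171 to 0.690, against 0.0896 to 0.132 in control, and that of miR-184 to miR-204 spreads up to 9.66.

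In the lens and pigment epithelium set the 2 members stood on opposite sides of control in source H. The 5p arm name ola-miR-184-5p, of the family known from lens and cornea, averaged 6293 CPM. Control libraries held 5716, 2283 and 5248 CPM. Along the source oil series it held 5033, 5091 and 9030 CPM at 0.125%, 9633, 4318 and 4857 CPM at 0.25%, and 11959, 10757 and 7922 CPM at 0.5%. All 3 source H libraries lay above all controls, and source L and source M overlapped them. In the slick oil series it held 6784, 5852 and 7419 CPM at 0.5%, 3118, 6126 and 3368 CPM at 1%, and 4570, 5936 and 7123 CPM at 2%. The slick L libraries lay above the controls, the closest pair being 5852 CPM in L5 and 5716 CPM in C4.

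In source H ola-miR-184-5p averaged 10213 ± 2073 CPM, against 4416 ± 1862 CPM in control (SD, n = 3 each). The log2 fold change was 1.24 ± 0.43 and missed the threshold in the fit over all names (edgeR adjusted p = 0.102). It passed among names above 0 in every library (1.37, adjusted p = 0.0156), in a joint fit over 21 libraries (1.21, adjusted p = 0.0217) and with DESeq2 (1.14, adjusted p = 0.0293). Of all names these settings called 50.0%, 47 of 107 and 38.4%, in that order. The authors' deposited table lists it higher at 1.07 (adjusted p = 0.0432) and calls 52.3% of its names. The other exposures stood between -0.09 ± 0.48 in slick M and 0.66 ± 0.38 in slick L. The source oil slope was 1.66 ± 0.79 per percent (adjusted p = 0.191). The mean level in source H was the highest of the 7 groups, and its libraries did not overlap those of slick L, the next group by mean. Among all names the libraries of these 2 groups did not overlap for 52.3%. Source H did overlap source L and source M. Its lowest library held 7922 CPM, below source L3 at 9030 CPM and source M1 at 9633 CPM.

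The pigment epithelium miRNA ola-miR-204 averaged 4272 CPM. Control libraries held 6555, 4444 and 5010 CPM. Along the source oil series the libraries held 2786, 2958 and 1054 CPM at 0.125%, 1609, 1138 and 8255 CPM at 0.25%, and 3662, 1114 and 2804 CPM at 0.5%. Of these 9 libraries 8 lay below the lowest control, and source M5 lay above the highest. Along the slick oil series ola-miR-204 held 5843, 7384 and 4872 CPM at 0.5%, 2152, 5449 and 3554 CPM at 1%, and 4706, 9083 and 5281 CPM at 2%, overlapping control at each dose.

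No contrast of ola-miR-204 with control was called. The log2 fold change was -1.23 ± 0.45 in source L (edgeR adjusted p = 0.295) and -0.88 ± 0.25 without L3 (adjusted p = 0.188). In source H it was -1.06 ± 0.50 (adjusted p = 0.219), and DESeq2 called it at -1.20 (adjusted p = 0.0257), as does the authors' deposited table at -1.16 (adjusted p = 0.0303). Of all names DESeq2 called 38.4% there and the deposited table calls 52.3%. In source M it was -0.50 ± 0.85 with all libraries, and -1.93 ± 0.26 (adjusted p = 0.0139) without source M5, where 50 of 161 names were called. Library M5 held 3641165 counts, the lowest in its group. Its sum of 3 muscle and heart names was also the lowest of source M, at 217864 CPM beside 513851 and 882549 CPM in the others, and the part of either in the result was not tested. In slick oil the values were 0.23 ± 0.20 in slick L, -0.54 ± 0.40 in slick M and 0.35 ± 0.30 in slick H.

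The ratio of ola-miR-184-5p to ola-miR-204 was 3.27, 9.66 and 2.83 in source H and 1.81, 1.72 and 8.57 in source L, against 0.872, 0.514 and 1.05 in control. All libraries of both groups lay above the controls. Among single names libraries did not overlap control for 28.9% in source L and 50.0% in source H. In source M it was 5.99 and 3.79 in M1 and M3 but 0.588 in M5. In slick oil it ranged from 0.653 to 1.52 and overlapped control at each dose. Taking the sum of chi-miR-96 and chi-miR-182 over that of ola-miR-184-5p and ola-miR-204, the hair cell and retina names exceeded the lens and pigment epithelium names in control, at 1.73, 2.50 and 1.58. The same ratio was 0.553, 0.912 and 1.17 in source H, 0.825, 1.59 and 1.09 in source M, and 2.26, 2.16 and 1.58 in source L. It was 1.14, 1.19 and 1.75 in slick L, 2.70, 1.23 and 2.48 in slick M, and 0.457, 1.22 and 1.33 in slick H. The value of 0.457 was that of H4, the library with the low chi-miR-182 count. These sums leave out miR-183, whose level was missing in 8 libraries and which did not share the low value in H4. The hair cell and retina sum is weighted to chi-miR-182, with 112837 counts in control C4 beside 13311 of chi-miR-96. It does not show that the 2 names moved together. Both ratios combine members and are given without a test, and no share over ratios of other names was counted.

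**Figure D4:**
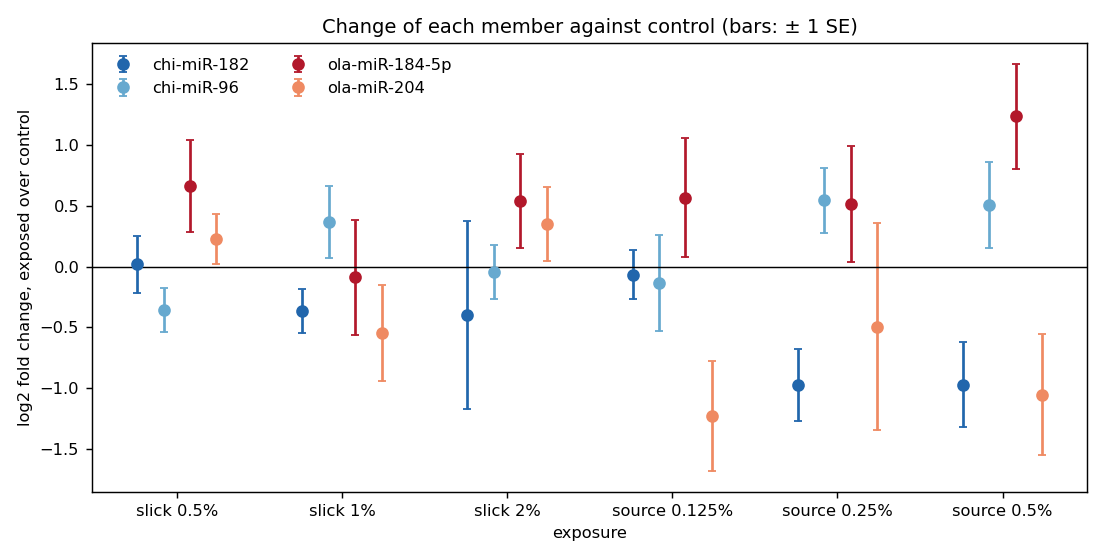
Log2 fold change of each member, exposed over control (vertical axis), for the 6 exposures (horizontal axis), from edgeR within the table of each exposure. Points are estimates and bars are 1 SE either side. In source M and source H chi-miR-182 stood at -0.98 and -0.97 while chi-miR-96 stood at 0.55 and 0.51, and in source H ola-miR-184-5p stood at 1.24 and ola-miR-204 at -1.06.

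Counted over the 6 exposures, 0 of 24 contrasts of the 4 members with control were called over all names, and 4 had an unadjusted p under 0.05. Of all names, edgeR gave such an unadjusted p to 43 of 159 in slick L, 17 of 159 in slick M and 39 of 158 in slick H. In source oil these were 24 of 152 in source L, 61 of 150 in source M and 58 of 160 in source H. The share of all names called was 14.5% in slick L, 1.26% in slick M, 10.1% in slick H, 0% in source L, 24.0% in source M and 9.38% in source H. These shares include names at 0 in some libraries, unlike the 4 members. Among names above 0 in every library, 44 of 114 were called in slick L, 5 of 112 in slick M and 31 of 113 in slick H. In source L 0 of 110 were called, in source M 61 of 108 and in source H 55 of 110. That setting called 1 of the 4 members in source M and 2 in source H. The authors' deposited tables list 19 of the 24 contrasts and call 4, all in source M and source H. Those tables call 50.9% of their names in source M and 52.3% in source H. Libraries did not overlap control in 7 of the 24 contrasts. These were chi-miR-182 in slick M, source M and source H, ola-miR-184-5p in slick L and source H, and ola-miR-204 in source L and source H. Among all names libraries did not overlap for 42.8% in slick L, 18.9% in slick M, 36.1% in slick H, 28.9% in source L, 54.0% in source M and 50.0% in source H. The 6 exposures share the 3 controls.

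Over all 7 groups together, edgeR called 67 of 107 names (62.6%) as differing and 0 of the 4 members. The adjusted p was 0.0642 for chi-miR-96, 0.0914 for ola-miR-184-5p, 0.203 for ola-miR-204 and 0.276 for chi-miR-182. Each member was called in few of the 21 fits that left out 1 library. Over these fits adjusted p rose to 0.407 for chi-miR-182, 0.142 for chi-miR-96, 0.251 for ola-miR-184-5p and 0.286 for ola-miR-204. Without slick H4 chi-miR-182 was called (adjusted p = 0.0165), as were 64 of 109 names. Without source M5 ola-miR-204 was called (0.00959), as were 61 of 107 names. The member chi-miR-96 was called without source L3 (0.0215) or source H3 (0.0388), where 67 of 109 and 66 of 108 names were called. In the same way ola-miR-184-5p was called without slick M5 (0.0479), as were 68 of 109 names. The lowest count of the 4 members in a library was 3452, which carries a counting error of 1.70%.

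The oils were set against each other directly in 4 pairs. At the shared nominal 0.5%, chi-miR-96 was higher in source H than in slick L, at 2567 ± 873 CPM and 1382 ± 98.9 CPM (SD, n = 3 each). The log2 fold change was 0.92 ± 0.31 (edgeR adjusted p = 0.0246), with no overlap of libraries. It was the only member called of 4, where 46 of 107 names (43.0%) were called and 24.3% were higher. The call was lost without slick L4, L5 or L6 or without source H1, with adjusted p = 0.0739, 0.0718, 0.102 and 0.160, and ranged down to 0.0146 over the other settings. In the same pair chi-miR-182 stood at -0.94 ± 0.49, ola-miR-204 at -1.23 ± 0.63 and ola-miR-184-5p at 0.64 ± 0.39. The libraries of the pair did not overlap for any of the 4, as for 52.3% of names. Fitted on these 6 libraries alone, chi-miR-182 (-1.04, adjusted p = 0.0386) and ola-miR-204 (-1.36, adjusted p = 0.0206) were called and chi-miR-96 was not (0.80, adjusted p = 0.0580). That fit called 45 of 105 names.

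The other pairs share a dose letter but not a concentration, and 0 of 4 members were called in each. The share of names called was 0.935% for source L against slick L, 38.3% for source M against slick M and 41.1% for source H against slick H. Libraries of a pair did not overlap for ola-miR-204 in the L pair, for chi-miR-182 in the M pair, and for ola-miR-184-5p and ola-miR-204 in the H pair. Among all names they did not overlap for 31.8%, 45.8% and 50.5%, in the order L, M, H. In source H against slick H ola-miR-204 stood at -1.33 ± 0.63, ola-miR-184-5p at 0.80 ± 0.39, chi-miR-96 at 0.62 ± 0.31 and chi-miR-182 at -0.49 ± 0.48. Without slick H4 the last of these was -1.005 and called (adjusted p = 0.0241), where 37 of 109 names were called. In source M against slick M chi-miR-182 stood at -0.64 ± 0.48 and in source L against slick L ola-miR-204 stood at -1.42 ± 0.63.

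Sums of tissue marker names also stood apart from control in several groups. The 3 muscle and heart names summed to 522250 to 712431 CPM in source H, 217864 to 882549 CPM in source M and 467495 to 592687 CPM in source L, against 193744 to 334612 CPM in control. The 6 brain and neuron names summed to 243381 to 299503 CPM in source H, 271916 to 305065 CPM in source M and 243597 to 308673 CPM in slick L, against 330764 to 413304 CPM in control. Such a sum is weighted to abundant names and does not show that its names moved together. Of the miR-9 family in this list, aca-miR-9-5p alone held 1952743 to 2288733 counts in the control libraries. It fell with source oil concentration (-1.58 ± 0.29 per percent), while ola-miR-124-5p, of another family in the list, rose in source M (1.29 ± 0.23). The endothelial name of miR-126 stood at 1023 to 5676 CPM in source H and 2233 to 2526 CPM in source M, below control, and at 11797 to 29284 CPM in slick L and 15022 to 24354 CPM in slick H, above control, against 6521 to 7297 CPM in control. The 3 skin and epithelium names summed to 5349 to 7361 CPM in slick L and 4190 to 6347 CPM in slick H, below control, to 10023 to 11024 CPM in source M, above control, and to 7256 to 16614 CPM in source H, against 8216 to 9700 CPM in control. Source H, set against slick L for chi-miR-96 above, did not overlap it in the endothelial sum or in the muscle and heart sum (270080 to 387083 CPM in slick L), and overlapped it in the brain and neuron sum and the skin and epithelium sum. The part of these shifts in the values of the members was not tested.

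Other miRNAs known from retina, lens and inner ear were counted from a list by family number, covering neural retina (miR-7, miR-9, miR-124, miR-125, miR-132 and miR-181), lens and cornea (miR-31 and miR-205), and inner ear and lateral line (miR-15, miR-18, miR-140, miR-194, miR-200 and miR-429). In slick L 3 of 24 list names rose and 2 fell, where 13 of all 159 names rose and 10 fell. The names aca-miR-132-5p (1.88 ± 0.26, adjusted p = 0.0116), of a neuronal family, and ssa-miR-181b-5p (0.89 ± 0.20, adjusted p = 0.0464), of a family found in retinal neurons, rose. The neural oha-miR-9-4-5p fell (-1.19 ± 0.24, adjusted p = 0.0361). The third name counted as higher, aca-miR-125a-5p, was listed at 0 in all controls. In slick H, where 10 of all 158 names rose and 6 fell, 2 of 23 rose, again aca-miR-132-5p (1.98 ± 0.33) and ssa-miR-181b-5p (1.19 ± 0.23), and 1 fell, hsa-miR-181b-2-3p (-0.86 ± 0.16). In slick M 0 of 25 and in source L 0 of 20 were called, where 2 of 159 and 0 of 152 of all names were. In source L 24 names had an unadjusted p under 0.05 and DESeq2 called 32.

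In source M 5 of 22 list names rose and 1 fell, where 16 of all 150 names rose and 20 fell. Among them cfa-miR-181b (1.53 ± 0.22), ola-miR-181a-5p (1.35 ± 0.15), ssa-miR-181b-5p (1.30 ± 0.24) and ola-miR-124-5p (1.29 ± 0.23), of a neuronal family, rose. In source H 2 of 23 rose and 1 fell, where 8 of all 160 names rose and 7 fell. The risers were ola-miR-181a-5p (1.43 ± 0.24) and sha-miR-181a-5p (1.38 ± 0.28), and the neural oha-miR-9-4-5p was the one that fell (-2.28 ± 0.42). Several list names share a family number, as those of miR-181 do, and whether they repeat the same reads was not tested. Counts of list names are therefore not counts of separate miRNAs. The median log2 fold change of the list was 0.47 in source M and 0.14 in source H, and 0.32 and 0.17 over all names tested. With source oil concentration 2 of 16 list names fell and 0 rose, where 19 of all 121 fell and 1 rose. The list names were ssa-miR-194b-5p (-3.09 ± 0.88 per percent) and the abundant aca-miR-9-5p (-1.58 ± 0.29). With slick oil concentration 1 of 21 rose, ssa-miR-181b-5p (0.47 ± 0.12), where 3 of all names rose and 4 fell. Between the oils 3 of 16 list names were called higher and 1 lower in source H against slick L, in source M against slick M and in source H against slick H, and 0 of 16 in source L against slick L. Of all 107 names 26 were higher and 20 lower in source H against slick L, 16 and 25 in source M against slick M, 22 and 22 in source H against slick H, and 1 and 0 in source L against slick L. In source H the names cfa-miR-181b (1.07 ± 0.33), sha-miR-200a (1.05 ± 0.32) and the corneal cgr-miR-205 (0.90 ± 0.31) were higher than in slick L, and aca-miR-132-5p (-1.26 ± 0.45) was lower. Against slick H these names stood at 1.04 ± 0.32, 1.17 ± 0.32, 1.08 ± 0.31 and -1.36 ± 0.45, all called. In source M the names sma-miR-124b-5p (1.45 ± 0.50), cfa-miR-181b (0.95 ± 0.32) and dre-miR-124-4-5p (0.88 ± 0.26) were higher than in slick M, and ssa-miR-194b-5p (-1.23 ± 0.42) was lower. Over the 7 groups 9 of 16 list names were called, beside 67 of 107 of all names.

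Names whose log2 CPM ran most like that of a member over the 21 libraries were found among 98 others by Pearson's r. Since 7 libraries lay apart, r is given within these 7 and within the other 14. For chi-miR-96 the nearest were the names ola-miR-142 (r = 0.957 and 0.716), tgu-miR-142-5p with the same counts, and oan-miR-214-5p (0.930 and 0.709). For ola-miR-184-5p they were ssa-miR-206-5p (0.541 and 0.655), ola-miR-100 (0.490 and 0.587) and aca-miR-212-5p (0.699 and 0.740). For ola-miR-204 they were ola-miR-135a (0.650 and 0.379), ccr-miR-454b (0.542 and 0.249) and ola-miR-214 (0.891 and 0.292). For chi-miR-182 they were ola-miR-27d-3p (0.0147 and 0.734), ssa-miR-18a-5p (-0.0570 and 0.536) and tgu-miR-155-5p (0.774 and 0.373). The first 2 names near chi-miR-182 were alike with it in the 14 libraries only. These 14 include slick H4, with 2177 CPM of chi-miR-182, where all others held 12155 CPM or more. The part of H4 in these r values was not tested. The name ola-miR-27d-3p also stands on 2 lines for source M, with 188 and 70 counts in M1. All points share the depth and scaling factor of their library.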

How the data were processed

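Small RNA of 21 libraries was analysed from 6 tables. Values are whole-number read counts per mature miRNA name, as deposited by the authors per the file headers, with 189 to 203 names a table. No source used here names the aligner or counter. Of the authors' deposited comparison tables, which hold group means (a scaled count signal), their difference (a score), log2 fold changes and p-values, values are quoted only where named. For these the submitters' processing notes name DESeq2. Column numbers differ from the titles, so columns were joined to groups. Where a name had several lines the highest count was used, and 6 blank control cells were filled from another table (0 of 774 shared control cells differed).

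Counts were tested with edgeR 4.0.16 in R 4.3.3 (TMM, glmQLFit, glmQLFTest). The filterByExpr minimum was 10 counts, with a total of at least 15. P-values were Benjamini-Hochberg adjusted over all names, with a threshold of 0.05. Exposures were tested within their table, slopes over the 12 libraries of an oil, and pairs of oils and the 7 groups in a fit over 21 libraries. SE was derived from the fold change and the F statistic. The scripts were tested on simulated data, and DESeq2 1.42.0 was an alternative. All members are named, with the 3 names most like each of the 4 in all libraries, and up to 4 called names of the eye and ear list per comparison, by size of change. The members and lists were chosen with earlier results of these data known. Separate beakers within a group are not stated in the labels, so p-values measure the spread between these libraries, which may be technical. Counting errors cover counting only.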

Additional observations from a re-analysis of the deposited data

Results flagged for a closer look

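The difference between the oils in chi-miR-96 passed its test in the fit over 21 libraries and was lost in others. At the shared nominal 0.5%, chi-miR-96 was higher in source H than in slick L by 0.92 ± 0.31 on the log2 scale (edgeR adjusted p = 0.0246), at 2567 ± 873 CPM and 1382 ± 98.9 CPM (SD, n = 3 each), and all 3 source H libraries lay above all 3 slick L libraries. Against the shared controls the member stood at 0.51 ± 0.35 in source H and -0.36 ± 0.18 in slick L, and neither contrast was called. The difference was not called in 4 of the 6 fits that left out 1 library of the pair, with adjusted p from 0.0146 to 0.160 over the 6, nor in the fit on the 6 libraries of the pair alone (0.80, adjusted p = 0.0580). In the 21-library fit 43.0% of all names were called between these groups, and the libraries of 52.3% did not overlap.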

How the results depend on the processing

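No member was called against control in the edgeR fits over all names, and the count of calls differed as follows. DESeq2 called 1 member in slick L, 1 in slick H, 1 in source M, 3 in source H and 1 in source H against slick H (ola-miR-204, -1.36, adjusted p = 0.0454). Among names above 0 in every library 1 was called in source M and 2 in source H. Total counts in place of TMM gave 1 in source H (chi-miR-182, -1.39, adjusted p = 0.0416), the 21-library fit gave 1 in source H, and the 6 libraries of the pair gave 2 in source H against slick L, where the 21-library fit had 1. Leaving out 1 library gave 0 to 1 calls in slick L, slick H, source L, the source oil slope, source H against slick L, source H against slick H and the 7-group test, and 0 to 2 in source M, where 2 were called without M5 (chi-miR-182 at -1.27, ola-miR-204 at -1.93). The calls in slick L and slick H, those of DESeq2 included, were of chi-miR-183, and that in source L without C5 was of tch-miR-183-5p, each at 0 in the controls used, so they concern the name and not the miRNA. Of all names, 30 of 160 were called in source H with total counts and 47 of 107 in the 21-library fit. The pair alone called 45 of 105 in source H against slick L, and source M without M5 had 50 of 161 called. In source H against slick H DESeq2 called 44 of 109. The cause of the differences in the count of member calls was not tested.

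Signs turned in 15 of 55 values of single members, in 40 settings, and in 0 of these was the value called. For chi-miR-182 in slick L they were -0.0046 with total counts, -0.050 among names above 0, -0.067 in the 21-library fit and -0.0093 with a replicate block. For ola-miR-184-5p in slick M they were 0.020 with total counts and 0.23 with repeated lines summed. In source L against slick L, names above 0 and the pair alone gave 0.049 and 0.080 for chi-miR-182 and 0.021 and 0.071 for ola-miR-184-5p. In source M against slick M ola-miR-204 stood at 0.059 with DESeq2, 0.088 among names above 0 and 0.11 in the pair alone. Leaving out 1 library gave, for chi-miR-182, -0.80 to 0.027 in slick H, -0.22 to 0.15 in slick L, -0.13 to 0.042 in source L and -0.19 to 0.15 in source L against slick L. For chi-miR-96 it gave -0.51 to 0.12 in source L, -0.27 to 0.085 in slick H, -0.023 to 0.12 for the slick slope, -0.13 to 0.42 in source L against slick L and -0.026 to 0.39 in source M against slick M. For ola-miR-184-5p it gave -0.47 to 0.14 in slick M and -0.42 to 0.058 in source L against slick L. For ola-miR-204 it gave -0.028 to 0.47 in slick H, -0.12 to 0.16 for the slick slope and -1.42 to 0.40 in source M against slick M. The name oan-miR-183 in source H ran from -0.97 to 17.73, a name with 0 in some libraries.

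Control and slick oil share column numbers 4 to 6. The deviations of same-numbered libraries correlated at -0.47 to 0.48, and not every pair lay above 0.1, so the numbers were not taken as pairs. A replicate block left 0 members called in slick L, slick M and slick H. Of the source oil columns only M5 of source M shares a number with control, too few for a block. The level of miR-183 was missing in 8 of 21 libraries, and the part of depth in the other values was not tested.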
